A study of Homo sapiens with 12 samples.

Results

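BE(2)-C is a clonal human neuroblastoma line with many extra copies of the oncogene MYCN. The response of these cells to JQ1 was read from 6 of the 12 Affymetrix PrimeView arrays of the series: 3 arrays of cells kept for 24 h with 1 µM JQ1 and 3 arrays of cells kept for the same time with DMSO, the solvent. The other 6 arrays hold Kelly, another MYCN-amplified neuroblastoma line, under the same treatments, and served here for a shared estimate of the spread and for a comparison of the lines. The samples were chosen by their labels alone. The labels speak of triplicates and do not say whether each came from its own culture. The p-values therefore measure only how far these samples spread, and that spread may be technical. The question named by the design is what displacement of BET proteins does to the transcriptome of MYCN-amplified cells.

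BET proteins, BRD2 and BRD3 among them, carry bromodomains that bind acetylated lysines of histones, and they bring the elongation factor P-TEFb to active genes. JQ1 fills the acetyl-lysine pocket and displaces them from chromatin. MYCN forms a dimer with MAX, binds the E-box CACGTG and drives genes of ribosome assembly, nucleotide synthesis, mitochondria and the cell cycle. In the adrenergic cells of neuroblastoma it acts beside the transcription factors of the sympathetic lineage.

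Of 18132 genes, 850 passed (4.69% of those tested), 395 higher with JQ1 (2.18%) and 455 lower (2.51%). A gene passed when its limma p, adjusted by Benjamini-Hochberg over all genes, was below 0.05; only genes that passed are said below to have risen or fallen. Levels are log2 intensities, fold changes are JQ1 minus DMSO on that scale, and values of the 3 arrays of a group are given in the order of replicates 1 to 3. Counts without single arrays are given in the order of DMSO replicates 1, 2 and 3 and then JQ1 replicates 1, 2 and 3. The response was shallow for most genes. The log2 fold change was below 0.25 in size for 66.3% of genes, and its median over all genes was -0.00792. At least 2-fold changes were called in 195 genes that rose (1.08%) and 225 that fell (1.24%). The remaining calls, 200 rises and 230 falls, had sizes of 0.5 to 1, and the smallest called changes were 0.51 upward and 0.52 downward. Another 58 genes lay 2-fold higher and 58 lay 2-fold lower without passing. The JQ1 arrays lay wholly above or below the DMSO arrays in 849 of the 850 genes, the exception being SMIM10, against 22.2% of all genes.

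Calls were fewer among dim genes. Genes were split into 5 groups of equal size by mean level. In the dimmest group 0.193% rose and 0.386% fell, and at mean levels of 7.40 to 9.02 3.61% rose and 4.22% fell. In the brightest group the shares were 3.47% and 3.78%. Background was gauged by 17 control probe sets for tag sequences, the brightest of which averaged 5.49 with DMSO and 5.55 with JQ1. Of the genes that fell, 62 had a JQ1 mean at or under that level, and of those that rose, 40 had such a DMSO mean, so the sizes of these changes are the least certain. Many genes are read by more than 1 probe set, and a gene was read here from its brightest one. Of the 647 called genes with several sets, 547 (84.5%) had all other sets on the same side of 0, against 54.5% of all such genes. In 221 of them another probe set passed in the same direction and in 0 in the opposite direction, as tested with limma over every probe set that names 1 gene (1263 of 44988 sets passed, 2.81%).

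**Figure D1:**
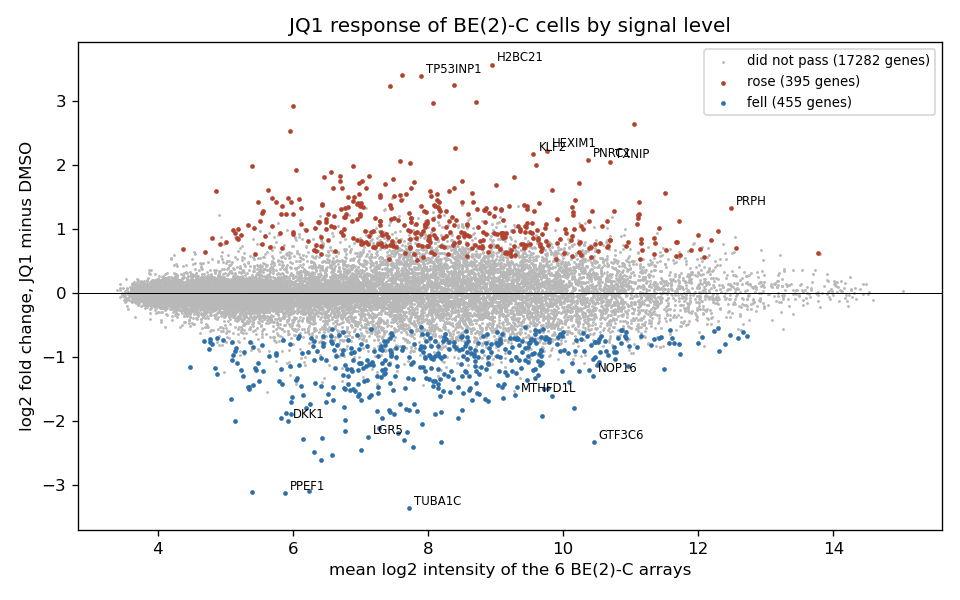
Log2 fold change (JQ1 minus DMSO) of each of 18132 genes against its mean log2 intensity over the 6 BE(2)-C arrays; red points rose (395), blue points fell (455) and grey points did not pass. The calls lie on both sides of 0, and few of them fall among the dimmest genes.

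The arrays of a group correlated at r = 0.960 to 0.996 over probe sets, and arrays of different groups at 0.952 to 0.986. DMSO replicate 1 and JQ1 replicate 3 stood apart by their hybridization controls (bacterial RNA spiked in at a set amount), at 12.92 and 12.70 against 9.94 to 11.19 on the other 4 arrays. Of the variation between arrays of the same group 80.2% lay along 1 principal component. The mean control signal differed by 0.21 between JQ1 and DMSO (two-sided exact permutation p = 0.8, n = 3 per group; 0.1 is the smallest p that 3 against 3 can give). The 3' minus 5' signal of ACTB, a gauge of RNA quality, differed by -0.02 (exact permutation p = 0.8) and that of GAPDH by -0.097 (exact permutation p = 0.4). DMSO replicate 1 was the highest BE(2)-C array in both, at 1.24 and 0.40. The other BE(2)-C arrays lay at 0.63 to 0.99 for ACTB and 0.15 to 0.27 for GAPDH. Without DMSO replicate 1 and JQ1 replicate 3 together 428 genes passed, 175 higher and 253 lower. Adding the control signal to the model as a covariate gave 2752 calls, 1486 higher and 1266 lower, and all 850 were among them. The count was 322, 386 and 471 without JQ1 replicates 1, 2 and 3, and 792, 408 and 539 without DMSO replicates 1, 2 and 3. No called gene turned its sign under any of these. In the fits that left out arrays this was fixed in advance for 849 of the 850, whose groups do not overlap. Falls outnumbered rises except with the covariate and without DMSO replicate 3 (280 higher, 259 lower).

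All 14 measured markers of neuroblastoma exceeded the brightest tag control with DMSO. That was so for 4 of 11 haematopoietic markers, all at or below 5.85, for 3 of 12 epithelial markers (KRT19, CLDN4 and CLDN7) and for 7 of 12 markers of Schwann cells or fibroblasts. The summed level of the last list was 71.1 to 71.8 on the DMSO arrays and 66.0 to 67.6 on the JQ1 arrays, which do not overlap (exact permutation p = 0.1, the smallest possible). LUM and DCN, which encode small matrix proteoglycans, fell in it and the other 10 members did not pass. LUM lost the call without DMSO replicates 2 or 3 or JQ1 replicates 1 or 3 (limma adjusted p of 0.0531 to 0.0844), and both genes had JQ1 means under the brightest tag control. The part of these markers in the results was not tested. No signal is at 0 on an array of this kind.

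MYCN and other genes tied to BET proteins come first. MYCN lay at 13.64, 13.53 and 13.52 with DMSO and 13.31, 13.16 and 13.23 with JQ1 in its brightest probe set. Each JQ1 array lay below each DMSO array, but the difference did not pass (log2 fold change -0.33 with SE 0.13, limma adjusted p = 0.210), and its other 3 probe sets lay between -1.03 and -0.32. The mean of the 4 sets gave -0.67 and passed (limma adjusted p = 0.00386). MYCN also passed with a trend and robust prior (limma adjusted p = 0.0480) and with the hybridization signal as a covariate in only the 6 arrays (0.0302), so the non-call depends on the processing. HEXIM1, the inhibitor of P-TEFb, lay at 8.34, 8.70 and 8.91 with DMSO and 10.81, 11.06 and 10.74 with JQ1 and rose (log2 fold change 2.22 with SE 0.17, limma adjusted p = 2.81e-05). BRD2 rose by 0.89, yet its adjusted p in limma was 0.0504 to 0.0904 whenever 1 of the 6 arrays was left out. BRD3 lay at 10.25, 10.35 and 10.40 with DMSO and 10.78, 10.81 and 10.91 with JQ1, which do not overlap and did not pass (log2 fold change 0.50 with SE 0.17, limma adjusted p = 0.127). BRD3 passed with quantile normalization (limma adjusted p = 0.0363) and with the hybridization signal as a covariate (0.0256 over 12 arrays, 0.00443 over 6). MYC, the paralog of MYCN, was dim on every array, at 4.003 to 4.31, and did not pass (0.15). SERPINI1, a neuronal protease inhibitor, lay at 4.99, 4.83 and 4.67 with DMSO and 6.57, 6.66 and 6.06 with JQ1 and rose 3.03-fold (log2 fold change 1.60 with SE 0.23, limma adjusted p = 0.00170), from DMSO levels under the brightest tag control. Of the 20 measured BET proteins and regulators of P-TEFb, HEXIM1 and BRD2 rose and 0 fell, a share of 10% against 2.18% of all genes that rose.

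Genes of ribosome assembly lay lower as a group. Of 50 measured members of the ribosome biogenesis and RNA polymerase I list, 10 fell (20%, against 2.51% of all genes) and 0 rose. A fold change below 0 was seen in 48, and in 9355 of all 18132 genes, with a median of -0.51. NOP16, a nucleolar protein of large-subunit assembly, lay at 11.03, 10.99 and 11.26 with DMSO and 9.75, 9.85 and 9.81 with JQ1. All JQ1 arrays were more than 1 log2 unit below the DMSO arrays, and it fell 2.45-fold (log2 fold change -1.29 with SE 0.20, limma adjusted p = 0.00286). WDR74, another assembly factor, fell by 0.96, though without JQ1 replicate 1 its limma adjusted p was 0.0602, and its other probe sets lay at -0.93 and 0.16. GAR1, of the H/ACA particles that modify ribosomal RNA, fell by 1.08, and MRTO4, which helps to build the large subunit, by 1.00. Both lost the call without DMSO replicates 2 or 3 or without any 1 of the JQ1 arrays (limma adjusted p of 0.0519 to 0.175 in GAR1 and 0.0945 to 0.167 in MRTO4 over those fits). When arrays were left out singly, the 10 falls were 11, 3, 3, 1, 3 and 3. They were 24 with the hybridization signal as a covariate, and the median of the list stayed between -0.58 and -0.49 over 16 alternatives.

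The proteins of the finished ribosome lay near 0. Of 47 measured cytoplasmic ribosomal protein genes, 0 passed in limma; their fold changes ran only from -0.14 to 0.27, with a median of 0.03 whose sign turned under 1 of the 16 alternatives. None of 32 translation factors and none of 27 aminoacyl-tRNA synthetases passed either, with medians of -0.04, whose sign turned under 1 alternative, and -0.12. Over all genes 4.69% passed. GTF3C6, a subunit of the factor that recruits RNA polymerase III to transfer RNA genes, was among the largest falls. It lay at 11.28, 11.59 and 11.996 with DMSO and 9.34, 9.69 and 8.84 with JQ1 and fell 5.04-fold (log2 fold change -2.33 with SE 0.25, limma adjusted p = 0.000274). PA2G4, a growth-regulated protein that binds ribosomes, had one of the tightest changes, from 12.13, 12.11 and 12.10 with DMSO to 11.28, 11.29 and 11.37 with JQ1 (log2 fold change -0.80 with SE 0.13, limma adjusted p = 0.00317).

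Nucleotide and one-carbon metabolism lay lower too. Of 35 measured genes of nucleotide, folate and polyamine synthesis, 5 fell (14.3%, against 2.51% of all genes) and 1 rose, with a median of -0.40 and 29 members below 0. MTHFD1L, the mitochondrial enzyme that makes formate for purine synthesis, lay at 10.27, 9.95 and 10.05 with DMSO and 8.59, 8.56 and 8.35 with JQ1 and fell 3.01-fold (log2 fold change -1.59 with SE 0.21, limma adjusted p = 0.000993). DCTPP1, which hydrolyses excess dCTP, lay at 11.68, 11.56 and 11.37 with DMSO and 10.34, 10.33 and 10.49 with JQ1 and fell 2.21-fold (log2 fold change -1.15 with SE 0.18, limma adjusted p = 0.00284). PFAS, an enzyme of purine synthesis, fell by 0.98, a call that was lost with the mean of its probe sets (limma adjusted p = 0.0682). The member that rose was SAT1, which breaks polyamines down. It lay at 6.87, 7.14 and 7.49 with DMSO and 8.43, 8.44 and 8.11 with JQ1, with no overlap (log2 fold change 1.16 with SE 0.21, limma adjusted p = 0.00656), and its other probe sets lay at 0.03 and 0.89. With each array left out in turn the 5 falls were 4, 4, 4, 3, 3 and 3.

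The promoter of GTF3C6 is shown because this gene passed under every alternative and its window holds the E-box of MYCN. The window runs from 250 bases before the start of the gene to 50 after it, in RefSeq's GRCh38.p14, written 5' to 3' with CACGTG in capitals. It is chr6:110958456-110958755 on the + strand, and the E-box begins 142 bases before the start.
GTF3C6: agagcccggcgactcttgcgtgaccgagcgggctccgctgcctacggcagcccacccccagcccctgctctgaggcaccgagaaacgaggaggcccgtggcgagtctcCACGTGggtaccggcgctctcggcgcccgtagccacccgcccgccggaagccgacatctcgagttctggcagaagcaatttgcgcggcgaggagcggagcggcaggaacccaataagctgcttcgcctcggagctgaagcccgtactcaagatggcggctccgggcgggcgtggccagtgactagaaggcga

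The motif was not particular to this gene. CACGTG, which reads the same on both strands, stood in 8.82% of the 14425 windows of tested genes, in 10.7% of those of genes that rose and in 13.5% of those of genes that fell. In the ribosome biogenesis list it stood in 14 of 42 windows (33.3%), and in 2 of the 9 windows of members that fell. In the DNA replication list it stood in 18.2% of windows, and in the lysosome and autophagy list in 25.5%. These are the first listed windows, of which 12068 lie at the outermost start of the gene in RefSeq. In the 12571 windows at outermost starts the motif stood in 8.94%, in 10.8% for genes that rose, 13.7% for genes that fell and 32.4% for the ribosome biogenesis list. These shares are descriptions with no test.

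Mitochondrial genes were read in 3 lists. Of 49 measured mitochondrial ribosomal protein genes, 5 fell (10.2%, against 2.51% of all genes) and 0 rose, with 43 below 0 and a median of -0.33. Of 33 genes of mitochondrial biogenesis and import, 4 fell (12.1%) and 1 rose, with a median of -0.37. PPRC1, a coactivator that drives mitochondrial biogenesis, lay at 9.18, 9.52 and 9.46 with DMSO and 8.09, 8.25 and 8.03 with JQ1 and fell 2.41-fold (log2 fold change -1.27 with SE 0.20, limma adjusted p = 0.00289). TIMM10, a chaperone of protein import, fell by 0.90, with a limma adjusted p of 0.0620 without DMSO replicate 2, 0.0776 without JQ1 replicate 1 and 0.0621 without JQ1 replicate 2. Of 48 genes of the respiratory chain and ATP synthase 0 passed in limma, against 4.69% of all genes, and 24 lay above and 24 below 0. No difference between these lists was tested. Without single arrays the 5 falls of the ribosomal proteins were 4, 0, 1, 0, 0 and 1, so that count rests on single arrays. The 4 falls of biogenesis and import were 4, 1, 3, 1, 2 and 3, and the 1 rise, of the DNA polymerase POLG (0.62, named after its value was seen), passed in 1 of these 6 fits, the one without DMSO replicate 1.

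**Figure D2:**
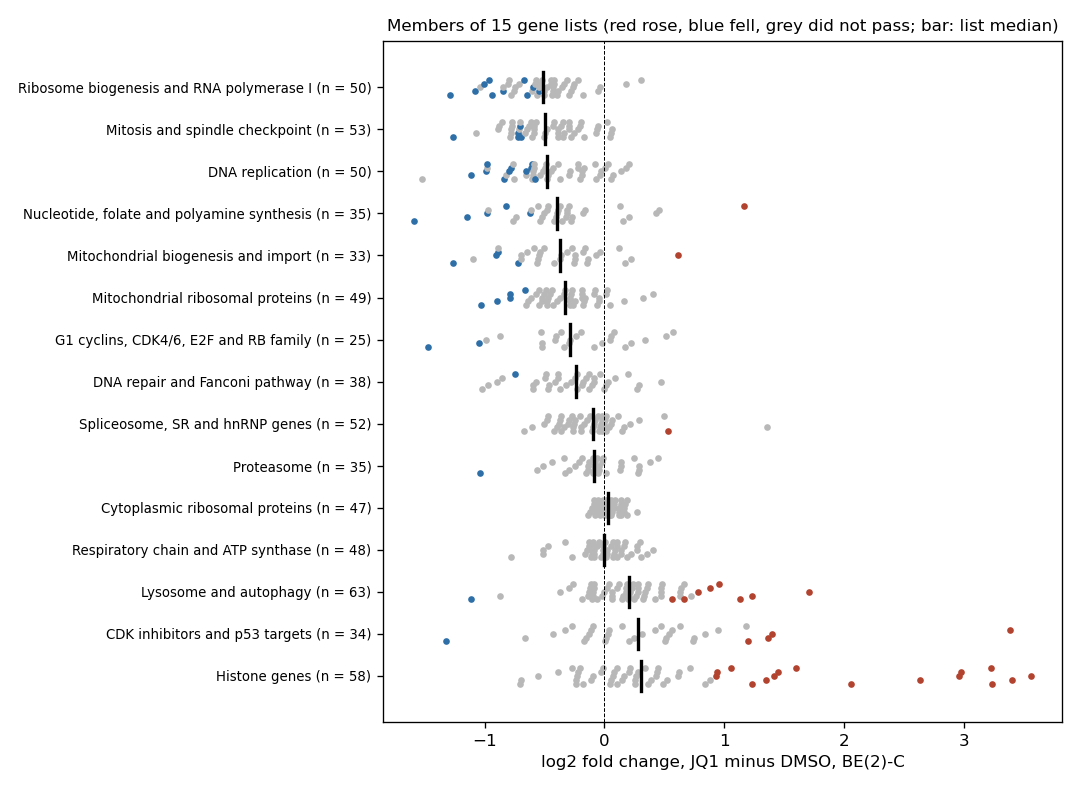
Log2 fold changes (JQ1 minus DMSO) in BE(2)-C of the measured members of 15 gene lists; each point is a gene, red if it rose, blue if it fell and grey if it did not pass, the bar is the median of the list and the dashed line that of all genes. Ribosome biogenesis lies to the left of 0 in 48 of 50 members, while cytoplasmic ribosomal proteins cluster at 0 and 16 histone genes extend to 3.57.

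Genes of DNA replication and of mitosis lay lower in JQ1. Of 50 replication genes 10 fell and 0 rose (median -0.48, 43 below 0), and of 53 mitosis genes 5 fell and 0 rose (median -0.50, 49 below 0). The shares that fell were 20% and 9.43%, against 2.51% of all genes. In bulk samples fewer cycling cells and less RNA of these genes per cell cannot be told apart. GINS1, a subunit of the replicative helicase, lay at 11.03, 11.01 and 11.17 with DMSO and 10.08, 10.08 and 9.69 with JQ1 and fell 2.17-fold (log2 fold change -1.12 with SE 0.15, limma adjusted p = 0.00141). Its other probe sets lay between -1.08 and -0.74. E2F8, an E2F factor of S phase, lay at 6.78, 7.48 and 7.75 with DMSO and 5.86, 6.20 and 5.53 with JQ1 and fell 2.78-fold (log2 fold change -1.47 with SE 0.27, limma adjusted p = 0.00767). E2F2, an activator of S-phase genes, moved from 7.89, 7.94 and 7.83 with DMSO to 6.82, 6.81 and 6.88 with JQ1 (log2 fold change -1.05 with SE 0.19, limma adjusted p = 0.00778). E2F2 did not pass with the mean of its probe sets (limma adjusted p = 0.0626) or without DMSO replicate 1 and JQ1 replicate 3 together (0.0526). SPC25, of the kinetochore, fell by 1.27, with a limma adjusted p of 0.0527 without DMSO replicate 3, 0.0527 without JQ1 replicate 1 and 0.0582 without JQ1 replicate 3.

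These counts moved with single arrays. Without them in turn the 10 replication genes that fell were 9, 2, 4, 1, 1 and 2, and the 5 mitosis genes were 6, 2, 0, 1, 1 and 0. The medians stayed between -0.56 and -0.41 for replication and between -0.64 and -0.38 for mitosis over the 16 alternatives. With the hybridization signal as a covariate 24 and 20 fell and 0 rose. Of 25 genes of G1 cyclins, CDK4/6, E2F and RB, E2F8 and E2F2 fell (8%, against 2.51% of all genes) and 0 rose. Of 38 DNA repair genes 1 fell (2.63%, near the 2.51% of all genes). It was CHEK1 (-0.75), which did not pass when any 1 of the 6 arrays was left out (limma adjusted p of 0.0671 to 0.172).

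Of 34 CDK inhibitors and p53 targets 4 rose and 1 fell (11.8% and 2.94%, against 2.18% and 2.51% of all genes), with a median of 0.28. CCNG2, an atypical cyclin of resting cells, lay at 6.43, 6.002 and 6.37 with DMSO and 7.92, 7.88 and 7.21 with JQ1 and rose 2.64-fold (log2 fold change 1.40 with SE 0.22, limma adjusted p = 0.00286). SESN3, a sestrin that restrains mTORC1, lay at 5.30, 5.11 and 5.08 with DMSO and 6.54, 6.57 and 6.48 with JQ1. Its DMSO arrays were under the brightest tag control, so the size of its rise is uncertain (log2 fold change 1.36 with SE 0.15, limma adjusted p = 0.000283), and its other probe set had 2.20. The CDK4/6 inhibitor CDKN2D rose by 1.20 and was named after its value was seen. The other member that rose was TP53INP1 (3.38), which lay at 5.77, 6.11 and 6.75 with DMSO and 9.76, 9.85 and 9.17 with JQ1 and whose other probe set had a fold change of 0.04. AEN, a nuclease induced by p53, went the other way, from 8.48, 8.76 and 8.67 with DMSO to 7.21, 7.45 and 7.28 with JQ1, and fell 2.50-fold (log2 fold change -1.32 with SE 0.24, limma adjusted p = 0.00772). With each array left out in turn the 4 rises were 4, 4, 5, 3, 3 and 4.

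TXNIP and PNRC1 were bright genes with large rises. TXNIP, which binds thioredoxin and limits glucose uptake, lay at 9.09, 9.97 and 9.96 with DMSO and 11.70, 11.74 and 11.72 with JQ1. The 3 JQ1 arrays nearly coincided, the spread lay among the DMSO arrays, and TXNIP rose 4.13-fold (log2 fold change 2.05 with SE 0.27, limma adjusted p = 0.000925). PNRC1, a coactivator of nuclear receptors, lay at 8.89, 9.36 and 9.74 with DMSO and 11.54, 11.41 and 11.26 with JQ1 and rose 4.21-fold (log2 fold change 2.07 with SE 0.21, limma adjusted p = 0.000235), with its other probe sets at 0.21 and 1.55. KLHL24, an adaptor of a ubiquitin ligase, lay at 7.60, 8.68 and 8.85 with DMSO and 10.18, 10.28 and 10.09 with JQ1 and rose 3.49-fold (log2 fold change 1.80 with SE 0.30, limma adjusted p = 0.00423). DMSO replicate 1 was the lowest array in each of these 3 genes, and all 3 passed without it (limma adjusted p = 0.00160, 0.000310 and 0.00489).

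Genes of lysosomes and autophagy lay higher. Of 63 measured members 8 rose and 1 fell (12.7% and 1.59%, against 2.18% and 2.51% of all genes), 45 lay above 0, and the median was 0.21. BNIP3L, a receptor for the removal of mitochondria by autophagy, lay at 9.25, 9.25 and 9.62 with DMSO and 11.10, 11.11 and 11.05 with JQ1 and rose 3.27-fold (log2 fold change 1.71 with SE 0.16, limma adjusted p = 0.000104). Its other 5 probe sets lay between 1.62 and 1.78. MAP1LC3B, the LC3 protein of the autophagosome membrane, lay at 10.36, 10.46 and 10.72 with DMSO and 11.74, 11.72 and 11.76 with JQ1 and rose 2.34-fold (log2 fold change 1.23 with SE 0.19, limma adjusted p = 0.00289). OPTN, a receptor that links cargo to LC3, lay at 6.75, 7.10 and 7.14 with DMSO and 7.96, 8.32 and 8.10 with JQ1 and rose 2.19-fold (log2 fold change 1.13 with SE 0.17, limma adjusted p = 0.00237). NEU1, the lysosomal sialidase, moved from 8.89, 8.86 and 8.88 with DMSO to 9.77, 9.82 and 9.91 with JQ1 (log2 fold change 0.96 with SE 0.14, limma adjusted p = 0.00202). CLN3, a lysosomal membrane protein, was the member that fell, from 9.28, 9.06 and 8.78 to 7.83, 7.94 and 8.02 (log2 fold change -1.11 with SE 0.16, limma adjusted p = 0.00180). When arrays were left out singly, the 8 rises were 5, 4, 5, 4, 4 and 5, and the median stayed between 0.14 and 0.25.

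Of 29 measured genes of cholesterol synthesis and sterol control 3 rose (10.3%, against 2.18% of all genes) and 0 fell, with a median of -0.12. They were ABCG1, which exports cholesterol from cells, TM7SF2, a sterol reductase, and NPC2, which carries cholesterol out of lysosomes. ABCG1 lay at 6.37, 6.18 and 6.06 with DMSO and 7.94, 7.67 and 7.63 with JQ1 (log2 fold change 1.55 with SE 0.24, limma adjusted p = 0.00289), TM7SF2 at 7.02, 7.06 and 6.66 with DMSO and 8.40, 8.30 and 8.65 with JQ1 (log2 fold change 1.54 with SE 0.20, limma adjusted p = 0.000898) and NPC2 at 7.31, 7.64 and 7.38 with DMSO and 8.58, 8.50 and 8.47 with JQ1 (log2 fold change 1.08 with SE 0.14, limma adjusted p = 0.00114). None of the 3 overlapped between groups, as in 849 of the 850 called genes, and all 3 calls held without any 1 array. The other probe sets went down to 0.48 for ABCG1, -0.03 for TM7SF2 and -0.05 for NPC2, and the mean over sets was 1.25, 1.01 and 0.57. VLDLR, a lipoprotein receptor, rose by 1.05 (limma adjusted p = 0.00666). DCXR, a reductase of sugars and carbonyls, rose by 1.55 and lay at 11.25, 10.46 and 10.51 with DMSO and 12.23, 12.11 and 12.52 with JQ1.

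Of the 57 lists the histone genes held the most rises. Of 58 measured members 16 rose and 0 fell, a share of 27.6% against 2.18% of all genes, and the count was 14 to 16 without any 1 array. Of these, 8 were of the H2B cluster genes, 5 of H2A and 3 of H3, out of 15, 12 and 10 measured, while 0 of 10 H4 genes and 0 of 5 H1 genes passed in limma. H2BC5 lay at 9.62, 9.78 and 9.77 with DMSO and 12.42, 12.37 and 12.30 with JQ1 and rose 6.22-fold (log2 fold change 2.64 with SE 0.15, limma adjusted p = 5.03e-06). H2BC12 lay at 10.12, 10.56 and 10.56 with DMSO and 11.79, 11.86 and 11.84 with JQ1 and rose 2.67-fold (log2 fold change 1.41 with SE 0.18, limma adjusted p = 0.000924), but its other probe set lay at 0.14 and the mean of both at 0.78. H2BC21 lay at 6.69, 7.41 and 7.41 with DMSO and 10.75, 11.21 and 10.25 with JQ1 in its brightest probe set. Its other sets lay at -0.02, and the mean of its 3 sets gave a fold change of 1.18. Histone genes are near copies of each other: 8 of the 16 were read by probe sets whose suffix marks possible cross-reading (20 of the 42 that did not pass), so the members are not separate counts. Most replication-dependent histone transcripts lack a poly(A) tail, and the labelling kit primes on such tails. Which form of the transcripts these signals read was not tested.

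The promoters of H2BC5 and H2BC21 are shown because most of the histone genes that rose hold both of these short elements in their windows. The windows are chr6:26157871-26158170 on the + strand and chr1:149886633-149886932 on the - strand (GRCh38.p14, RefSeq). Capitals mark TATAAA and CCAAT on either strand, where the other strand reads TTTATA and ATTGG.
H2BC5: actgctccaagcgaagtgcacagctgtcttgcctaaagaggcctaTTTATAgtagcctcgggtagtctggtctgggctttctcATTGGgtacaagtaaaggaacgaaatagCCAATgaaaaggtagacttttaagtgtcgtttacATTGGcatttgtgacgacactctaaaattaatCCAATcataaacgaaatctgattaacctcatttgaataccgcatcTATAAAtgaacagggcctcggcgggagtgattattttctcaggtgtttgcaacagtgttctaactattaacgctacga
H2BC21: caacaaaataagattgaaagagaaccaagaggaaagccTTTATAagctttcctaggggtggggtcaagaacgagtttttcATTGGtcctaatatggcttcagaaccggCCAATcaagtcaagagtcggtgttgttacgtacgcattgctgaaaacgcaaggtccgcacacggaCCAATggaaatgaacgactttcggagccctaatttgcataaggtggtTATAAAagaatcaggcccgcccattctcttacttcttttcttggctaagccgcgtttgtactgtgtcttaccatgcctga

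TATAAA begins 28 and 30 bases before the start in these windows. Of the 16 windows of histone genes that rose, 11 held TATAAA on either strand (68.8%, against 9.19% of all windows), 16 held CCAAT (36.4% of all windows) and 0 held CACGTG. Without the histone genes, 5.17% of the windows of genes that rose held TATAAA and 39.5% held CCAAT. The median GC content was 41.3% in the histone windows and 67% in those of all genes that rose. No test was made of these shares. The windows of the 42 histone genes that did not pass were not counted, so the shares are not tied to the rise.

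Of 42 genes of histone and DNA methylation 2 rose and 0 fell, a called share of 4.76% that is near the 4.69% of all genes (rises without single arrays 1, 1, 2, 1, 1 and 1). KDM5B, a demethylase of lysine 4 of histone H3, lay at 6.33, 6.77 and 7.12 with DMSO and 8.21, 8.17 and 8.41 with JQ1 and rose 2.87-fold (log2 fold change 1.52 with SE 0.20, limma adjusted p = 0.00121). The acetyltransferase KAT2B lay at 4.93, 5.63 and 6.30 with DMSO and 7.60, 7.70 and 7.23 with JQ1 and rose by 1.89 (limma adjusted p = 0.0084), with its other probe sets at 0.06 and 0.46. Of 18 histone deacetylases and sirtuins 2 rose and 1 fell (16.7% called; rises without single arrays 1, 1, 1, 0, 1 and 1). HDAC9 lay at 7.95, 8.23 and 8.53 with DMSO and 6.13, 5.996 and 5.25 with JQ1 and fell 5.45-fold (log2 fold change -2.44 with SE 0.23, limma adjusted p = 0.000135), with its other 4 probe sets between -0.59 and -0.03. SIRT1, a deacetylase that uses NAD, rose by 1.00, with a limma adjusted p of 0.0527 without JQ1 replicate 1. Of 41 Mediator and RNA polymerase II genes and of 52 splicing genes only POLR2L (0.80) and CLK2 (0.53) passed (2.44% and 1.92%, against 4.69% of all genes). Both lost the call in several of the fits that left out 1 array (limma adjusted p of 0.0606 to 0.0701 and 0.108 to 0.164).

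**Figure D3:**
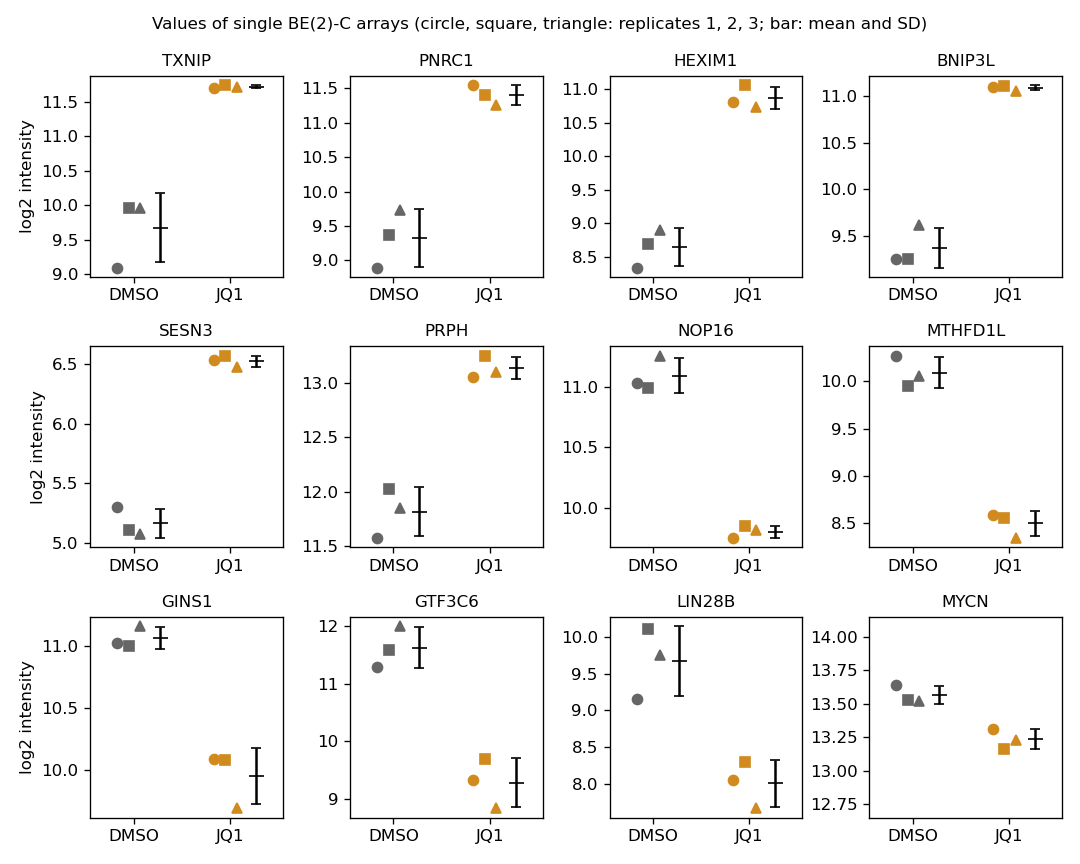
Log2 intensity of 12 genes on each of the 6 BE(2)-C arrays, DMSO in grey and JQ1 in orange, with the mean and SD of each group beside the points; circle, square and triangle are replicates 1, 2 and 3, and the vertical scale differs between genes. The groups do not overlap in any of the 12 genes, as in 849 of the 850 called genes and 22.2% of all genes. MYCN, read from its brightest probe set, has the smallest change at -0.33 and did not pass. It passed with the mean of its probe sets (-0.67) and with 2 other alternatives.

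Noradrenergic genes moved in both directions. Of 24 catecholamine and dense-core vesicle genes 5 rose and 5 fell, a share of 41.7% against 4.69% of all genes. The falls included genes for making and loading the transmitter, and the other falls of the list are not described here. TH, the first enzyme of the pathway, lay at 9.42, 9.45 and 9.23 with DMSO and 7.70, 7.83 and 8.12 with JQ1 (log2 fold change -1.48 with SE 0.21, limma adjusted p = 0.00147), and DBH, which makes noradrenaline, at 11.19, 10.38 and 10.33 with DMSO and 9.05, 8.76 and 9.29 with JQ1 (log2 fold change -1.60 with SE 0.25, limma adjusted p = 0.00289). SLC18A1, which loads vesicles, lay at 7.23, 7.998 and 8.32 with DMSO and 5.46, 5.84 and 5.77 with JQ1 (log2 fold change -2.16 with SE 0.33, limma adjusted p = 0.00250). VGF, a neuropeptide precursor of the granule, went up, from 10.09, 9.93 and 10.31 with DMSO to 11.40, 11.58 and 11.21 with JQ1 (log2 fold change 1.28 with SE 0.18, limma adjusted p = 0.00170). Without single arrays the 5 rises were 2, 2, 3, 1, 2 and 2 and the 5 falls 4, 3, 4, 3, 3 and 3. Of 26 adrenergic transcription factors 3 rose and 1 fell (11.5% and 3.85%, against 2.18% and 2.51% of all genes). TFAP2B, a factor of sympathetic precursors, lay at 11.13, 11.0002 and 11.11 with DMSO and 10.21, 9.96 and 9.81 with JQ1 and fell (log2 fold change -1.08 with SE 0.15, limma adjusted p = 0.00134). PHOX2A, which drives TH and DBH, rose by 0.83, with a limma adjusted p of 0.0536 without DMSO replicate 2. When arrays were left out singly, the 3 rises of that list were 3, 0, 1, 1, 1 and 1.

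Neuronal structure genes gave a mixed picture. PRPH, the filament protein peripherin of peripheral neurons, lay at 11.57, 12.03 and 11.85 with DMSO and 13.06, 13.26 and 13.11 with JQ1 and rose 2.50-fold (log2 fold change 1.32 with SE 0.21, limma adjusted p = 0.00352). NES, the filament protein nestin of neural progenitors, lay at 9.54, 9.29 and 9.35 with DMSO and 8.50, 8.37 and 8.55 with JQ1 and fell 1.89-fold (log2 fold change -0.92 with SE 0.14, limma adjusted p = 0.00291). NSG2, a vesicle protein of neurons, lay at 12.62, 13.01 and 12.76 with DMSO and 12.02, 12.01 and 11.98 with JQ1 and fell 1.73-fold (log2 fold change -0.79 with SE 0.14, limma adjusted p = 0.00759). MAP2, a dendritic microtubule protein, fell by 0.93, and did not pass without DMSO replicate 1 and JQ1 replicate 3 together (limma adjusted p = 0.0655). Of 42 axon growth and neuronal marker genes 2 rose and 2 fell, 4.76% each, against 2.18% and 2.51% of all genes. Without single arrays 3, 1, 1, 1, 1 and 1 rose and 3, 1, 1, 1, 1 and 1 fell. CD24, a surface glycoprotein of immature neurons, lay at 8.49, 8.83 and 9.04 with DMSO and 10.25, 10.21 and 9.98 with JQ1 and rose 2.57-fold (log2 fold change 1.36 with SE 0.17, limma adjusted p = 0.000810).

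Semaphorin receptors were among the falls. Of 57 axon guidance genes 4 fell and 2 rose (7.02% and 3.51%, against 2.51% and 2.18% of all genes), with a median of -0.04 whose sign turned under 2 of the 16 alternatives. PLXNA2, a receptor for semaphorins, lay at 8.82, 8.61 and 8.57 with DMSO and 6.76, 6.86 and 7.15 with JQ1 and fell 3.34-fold (log2 fold change -1.74 with SE 0.21, limma adjusted p = 0.000590). PLXNA4, of the same family, lay at 9.63, 9.19 and 9.44 with DMSO and 7.78, 7.50 and 7.50 with JQ1 and fell 3.55-fold (log2 fold change -1.83 with SE 0.23, limma adjusted p = 0.000851), although the other probe sets of PLXNA4 lay at -0.64 to -0.23. PLXNA3, of the same family, rose by 1.08 (limma adjusted p = 0.0142), and was named after its value was seen. With each array left out in turn the 4 falls were 4, 3, 2, 2, 2 and 3 and the 2 rises 1, 0, 1, 0, 0 and 1. Of 50 ion channel genes 1 rose (2%, near the 2.18% of all genes) and 0 fell. Of 40 synaptic genes 2 rose and 2 fell, 5% each (without single arrays 2, 1, 1, 1, 1 and 1 rose and 1, 0, 2, 0, 1 and 1 fell).

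Receptors at the cell surface were among the larger falls. Of 57 transmitter and purine receptors 6 fell and 1 rose (10.5% and 1.75%, against 2.51% and 2.18% of all genes), and the falls were 5 or 6 without any 1 array. P2RY6, a receptor for UDP, lay at 7.44, 8.09 and 8.01 with DMSO and 6.14, 6.22 and 6.19 with JQ1 and fell 3.17-fold (log2 fold change -1.66 with SE 0.24, limma adjusted p = 0.00202). P2RX5, a channel opened by ATP, lay at 9.52, 9.60 and 9.52 with DMSO and 7.80, 7.94 and 8.17 with JQ1 and fell 2.98-fold (log2 fold change -1.58 with SE 0.17, limma adjusted p = 0.000283). ADORA2B, an adenosine receptor, lay at 6.94, 7.81 and 7.92 with DMSO and 4.95, 5.25 and 5.02 with JQ1, where the JQ1 arrays were under the brightest tag control. LPAR1, a receptor for lysophosphatidic acid, lay at 8.28, 9.17 and 9.35 with DMSO and 6.97, 7.22 and 6.48 with JQ1 and fell 4.12-fold (log2 fold change -2.04 with SE 0.29, limma adjusted p = 0.00151). TYRO3, a receptor tyrosine kinase, lay at 9.11, 9.05 and 8.98 with DMSO and 7.09, 7.19 and 7.19 with JQ1 and fell 3.72-fold (log2 fold change -1.89 with SE 0.19, limma adjusted p = 0.000236). The arrays of each group nearly coincided in TYRO3, but its other probe set lay at -0.32.

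WNT and insulin-like growth factor genes included some of the larger falls. Of 43 WNT genes 4 fell (9.3%, against 2.51% of all genes) and 0 rose. LGR5, the receptor for R-spondins that strengthens WNT signals, lay at 7.44, 8.39 and 8.89 with DMSO and 6.25, 6.59 and 5.13 with JQ1 and fell 4.76-fold (log2 fold change -2.25 with SE 0.37, limma adjusted p = 0.00427), with its other probe set at -0.40. DKK1, a secreted WNT antagonist, lay at 6.36, 7.14 and 7.29 with DMSO and 4.89, 4.94 and 4.96 with JQ1, with all JQ1 arrays under the brightest tag control (log2 fold change -2.002 with SE 0.31, limma adjusted p = 0.00301). Without single arrays the 4 falls were 5, 2, 3, 2, 2 and 2. Of 34 genes of insulin-like growth factor, PI3K and FOXO 4 fell (11.8%) and 1 rose, and the falls were 3 to 5 without any 1 array. IGF2BP1, an RNA-binding protein that stabilises growth-related mRNAs, lay at 10.52, 9.98 and 10.30 with DMSO and 9.04, 9.15 and 8.78 with JQ1 and fell 2.42-fold (log2 fold change -1.28 with SE 0.17, limma adjusted p = 0.00134). SGK1, a kinase downstream of PI3K, lay at 9.63, 10.28 and 10.25 with DMSO and 8.56, 8.72 and 8.47 with JQ1 and fell 2.77-fold (log2 fold change -1.47 with SE 0.22, limma adjusted p = 0.00202). Its other 3 probe sets lay between -1.64 and -1.33. LIN28B, which blocks the maturation of let-7 microRNAs, was the 1 gene of 16 in the stem cell list that passed (6.25%, against 4.69% of all genes). It lay at 9.16, 10.10 and 9.75 with DMSO and 8.06, 8.30 and 7.67 with JQ1 and fell 3.16-fold (log2 fold change -1.66 with SE 0.30, limma adjusted p = 0.00770). Of 43 genes of BMP, TGF-beta and ID, GDF11, a ligand of that family, rose from 8.40, 8.48 and 8.27 to 9.53, 9.67 and 9.56 (log2 fold change 1.21 with SE 0.15, limma adjusted p = 0.000704).

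Immune and matrix genes moved in both directions. Of 43 interferon and antigen presentation genes 2 rose and 2 fell, 4.65% each, against 2.18% and 2.51% of all genes. The rises without single arrays were 3, 2, 2, 1, 1 and 2. STAT3, a cytokine-activated transcription factor, lay at 10.71, 10.99 and 11.02 with DMSO and 11.91, 11.91 and 11.96 with JQ1 and rose 2.02-fold (log2 fold change 1.02 with SE 0.16, limma adjusted p = 0.00355). TAP2, a subunit of the peptide transporter for MHC class I, lay at 9.49, 8.13 and 8.34 with DMSO and 6.43, 6.56 and 6.40 with JQ1 and fell 4.57-fold (log2 fold change -2.19 with SE 0.34, limma adjusted p = 0.00279), with its other probe sets between -1.20 and -0.91. DMSO replicate 1 was well above the other DMSO arrays there, and the call held without it (limma adjusted p = 0.00322). Of 47 mesenchymal and matrix genes 2 rose (4.26%) and 3 fell (6.38%; without single arrays 1, 1, 1, 1, 1 and 1 rose and 3, 3, 3, 2, 2 and 2 fell). S100A10, a calcium-binding protein of the cell membrane, lay at 6.81, 7.38 and 7.54 with DMSO and 8.73, 8.84 and 8.91 with JQ1 and rose 3.00-fold (log2 fold change 1.58 with SE 0.21, limma adjusted p = 0.000925). ENG, a coreceptor of TGF-beta, lay at 9.46, 9.63 and 9.20 with DMSO and 7.52, 7.38 and 7.51 with JQ1 and fell 3.88-fold (log2 fold change -1.95 with SE 0.21, limma adjusted p = 0.000283). KRT19, a keratin, fell from 8.38, 8.19 and 7.92 to 6.85, 6.76 and 6.99 (log2 fold change -1.30 with SE 0.20, limma adjusted p = 0.00287). Of 22 HOX genes HOXC8 and HOXC4 fell (9.09%) and 0 rose, also without any 1 array. HOXC4 lay at 9.77, 9.08 and 9.45 with DMSO and 8.33, 8.23 and 8.43 with JQ1 and fell 2.15-fold (log2 fold change -1.10 with SE 0.20, limma adjusted p = 0.00714).

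Other lists held few calls or none. In limma 0 of 23 immediate-early genes, 0 of 33 NOTCH genes, 0 of 20 retinoic acid genes, 0 of 36 heat shock and chaperonin genes and 0 of 14 neighbours of MYCN on 2p24 passed. The share over all genes was 4.69%, so 0 in lists of this size is not a result about them. Over all genes 2767 had an unadjusted p under 0.05. Of 45 genes of the ATF4 and unfolded protein responses 1 rose and 1 fell (falls without single arrays 1, 0, 0, 0, 0 and 0), of 35 proteasome genes 1 fell (PSMB10, -1.04, with a limma adjusted p of 0.0551 without JQ1 replicate 1), and of 18 Kruppel-like and SP factors KLF2 alone passed. The called shares were 4.44%, 2.86% and 5.56%, against 4.69% of all genes. KLF2, a zinc finger factor of resting cells, lay at 8.27, 8.58 and 8.59 with DMSO and 10.71, 10.58 and 10.63 with JQ1 and rose 4.48-fold (log2 fold change 2.16 with SE 0.19, limma adjusted p = 8.25e-05). Of 42 NRF2 and glutathione genes 3 rose (7.14%) and 1 fell (2.38%), against 2.18% and 2.51% of all genes. The rises without single arrays were 3, 2, 2, 1, 2 and 1. Of 44 genes of the BCL2 family, caspases and death receptors 2 rose and 2 fell, 4.55% each. The last 4 calls (TRADD, TNFRSF21, CFLAR and BCL2) were lost without any 1 of the JQ1 arrays, with limma adjusted p of 0.0543 to 0.214.

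ARMCX3, MAPK8 and PIM1 were among the rises below 2-fold with the lowest p. ARMCX3, a protein of mitochondrial transport in neurons, lay at 9.48, 9.52 and 9.58 with DMSO and 10.63, 10.41 and 10.53 with JQ1 (log2 fold change 0.998 with SE 0.14, limma adjusted p = 0.00128). MAPK8, the kinase JNK1, lay at 7.88, 8.13 and 8.20 with DMSO and 9.04, 8.98 and 9.01 with JQ1 (log2 fold change 0.94 with SE 0.15, limma adjusted p = 0.00289), and PIM1, a survival kinase, at 8.47, 8.84 and 8.62 with DMSO and 9.58, 9.71 and 9.46 with JQ1 (log2 fold change 0.94 with SE 0.15, limma adjusted p = 0.00347). PPP3CB, a catalytic subunit of calcineurin, rose by 0.94, a call lost with the mean of its probe sets (limma adjusted p = 0.174). No array of one group overlapped the other in these 4 genes, as in 849 of the 850 called genes. Among the falls, IL15, a cytokine, lay at 5.52, 5.77 and 5.53 with DMSO and 4.61, 4.69 and 4.61 with JQ1 (log2 fold change -0.97 with SE 0.14, limma adjusted p = 0.00150), so its JQ1 arrays were under the brightest tag control. TMEM109, a membrane protein, fell by 0.99 (other probe set -0.21) and the noncoding AGAP2-AS1 by 0.97.

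Among the brightest 5% of genes, with mean levels of at least 10.93, 23 rose and 27 fell of 907. These shares are near the 2.18% and 2.51% of all genes. HDGF, a nuclear growth factor, lay at 12.86, 12.75 and 12.68 with DMSO and 11.94, 11.72 and 11.92 with JQ1 and fell 1.87-fold (log2 fold change -0.90 with SE 0.14, limma adjusted p = 0.00339). ANP32E, a chaperone that removes the histone variant H2A.Z, lay at 12.04, 12.36 and 12.25 with DMSO and 11.35, 11.39 and 11.05 with JQ1 and fell 1.93-fold (log2 fold change -0.95 with SE 0.15, limma adjusted p = 0.00363). Their other probe sets lay between -1.10 and -0.87 and between -1.26 and -1.08. CIRBP, an RNA-binding protein induced by cold, lay at 10.88, 11.21 and 11.35 with DMSO and 12.26, 12.31 and 12.26 with JQ1 and rose 2.19-fold (log2 fold change 1.13 with SE 0.20, limma adjusted p = 0.00712), and it did not pass without DMSO replicate 1 and JQ1 replicate 3 together (0.0650). DDX39A, an RNA helicase of mRNA export, fell by 1.19, with a limma adjusted p of 0.0516 without JQ1 replicate 1 and 0.0502 without JQ1 replicate 2.

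The calls of BE(2)-C overlapped those of Kelly in part. In Kelly 1178 genes passed (6.5%), 1.76% of all genes higher and 4.73% lower, and 321 passed in both lines in the same direction, 110 higher and 211 lower. That was 37.8% of the BE(2)-C calls and 27.3% of the Kelly calls, and 1 gene passed in opposite directions. The 2 effects share no arrays, but both were tested with a shared estimate of the spread of each gene. A gene with a low shared spread passes more easily in both lines, so the 2 lists of calls are not independent. The part of this in the overlap was not tested. MTHFD1L had log2 fold changes of -1.59 in BE(2)-C and -1.53 in Kelly, GTF3C6 of -2.33 and -2.51, H2BC5 of 2.64 and 2.45, and GDF11 of 1.21 and 1.05.

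The difference between the effects of the lines was tested in the same limma fit and passed in 101 genes (0.557%), with the BE(2)-C effect above that of Kelly in 80 (0.441%) and below it in 21 (0.116%). Of the 850 BE(2)-C calls 38 were among them (4.47%). In 16 of these the gene rose in BE(2)-C by more than in Kelly, in 18 it fell by more, and in 4 it fell by less. RIN2, an effector of RAB5 in endocytosis, lay at 8.67, 8.94 and 8.79 with DMSO and 6.48, 6.64 and 6.38 with JQ1 in BE(2)-C, a fold change of -2.30 against -0.06 in Kelly (difference -2.24, limma adjusted p = 0.00138). ENG had -1.95 against 0.18 (limma adjusted p = 0.00647), SGK1 -1.47 against 0.50 (0.0121) and FGL1, a secreted fibrinogen-like protein, -2.33 against 0.71 (0.00600). BNIP3L rose by 1.71 against 0.53 in Kelly (limma adjusted p = 0.0332), PNRC1 by 2.07 against 0.43 (0.0279) and KLF2 by 2.16 against 0.54 (0.0179). KLF2 was dimmer in Kelly, with means of 5.61 with DMSO and 6.14 with JQ1, than in BE(2)-C (8.48 and 10.64). The part of such level differences between the lines in these results was not tested. P2RX5 and IGFBP5 fell by less in BE(2)-C, by 1.58 against 3.51 and by 1.79 against 4.56. The JQ1 mean of IGFBP5 in Kelly was 4.46, under the brightest tag control, so the size of that fall and of the difference is uncertain. Without any 1 of the 12 arrays the count of differences ranged from 39 (without BE(2)-C JQ1 replicate 1) to 212 (without Kelly DMSO replicate 3), and it was 686 with the hybridization signal as a covariate. For most BE(2)-C calls a difference from Kelly was therefore not shown, which does not show that the lines respond alike.

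**Figure D4:**
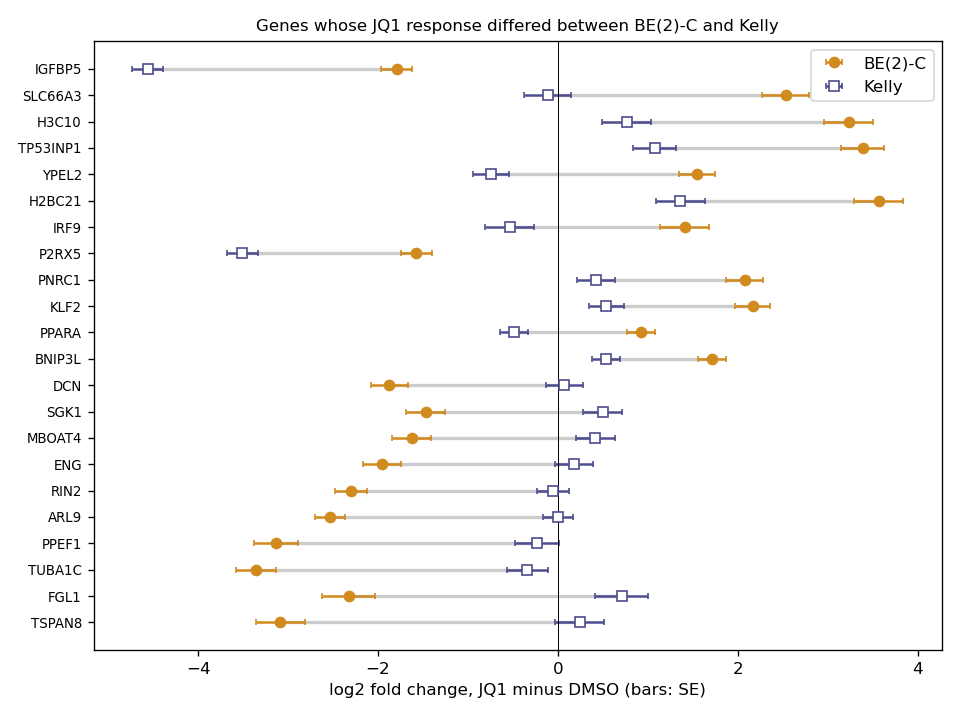
Log2 fold changes (JQ1 minus DMSO) in BE(2)-C (filled orange circles) and Kelly (open squares) for the 22 named genes whose effects differed between the lines; bars are the SE of the limma fit, which is the same for both lines. IGFBP5 lies at -1.79 in BE(2)-C and -4.56 in Kelly, where its JQ1 level was under the brightest tag control, and TP53INP1 at 3.38 and 1.08.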

How the data were processed

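Values of 12 PrimeView arrays were used, 3 per group. The authors ran RMA (background correction, normalization across arrays, 1 value per probe set), per the submitters' processing notes, with no version stated. The deposited table holds linear intensity values, not the log2 values first assumed, with medians of 61.4 to 65.7 and maxima of 32400 to 34820 on the BE(2)-C arrays, and log2 was taken here with no offset. Such normalization can remove a change in total RNA. Of 49395 probe sets, 44988 named 1 gene, 1832 several and 2473 none; 102 were controls. Symbols were updated through RefSeq's GRCh38.p14 gene table (99.9% of 1-gene probe sets matched). A gene was read from its brightest probe set over the 12 arrays.

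The fit used limma 3.58.1 under R 4.3.3 (lmFit, contrasts.fit and eBayes) with the means of 4 groups over all 12 arrays; the median SE of a log2 fold change was 0.21, and 3 arrays per group limit the precision. P-values are two-sided, adjusted by Benjamini-Hochberg over 18132 genes, threshold 0.05. The fit was tested on simulated data. Alternatives changed the arrays used, prior, block, normalization, probe set rule, dim filter, offset and covariate.

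The 57 gene lists (2084 symbols, 1906 measured) and the rule for named genes were chosen with earlier results of these data known. The rule takes genes tied to BET proteins, the 30 largest rises and falls, 8 and 8 of lowest p below 2-fold, 8 and 8 of the brightest, up to 4 per list and 8 and 8 of the line difference; which of these 199 genes stand in the text was decided after seeing values, and members whose call held were preferred. Promoter windows of RefSeq run from 250 bases before to 50 after a start; 14425 tested genes had one, and the first listed was used; a gene with several starts can have its window inside the gene. The hybridization signal is the mean log2 of 9 control probe sets. Whether replicate numbers pair the BE(2)-C arrays could not be decided from the values. No pair of BE(2)-C arrays shared over 15 identical values.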

Additional observations from a re-analysis of the deposited data

Results flagged for a closer look

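For 22 named genes the JQ1 effect (log2, BE(2)-C minus Kelly) differed between the lines in the limma fit. The effect was higher in BE(2)-C for the histone genes H3C10 by 2.4671 and H2BC21 by 2.2052, for TP53INP1 by 2.3089, for SLC66A3 by 2.646 and for YPEL2 by 2.2923. It was also higher for the transcription factors KLF2 by 1.6264, IRF9 by 1.942 and PPARA by 1.4098, for the coactivator PNRC1 by 1.6488 and for BNIP3L by 1.1803. IRF9 did not pass in BE(2)-C without JQ1 replicate 1 (limma adjusted p = 0.0585) or 2 (0.0612). The DMSO mean of SLC66A3 in BE(2)-C was 4.70, under the brightest tag control, and its Kelly means were 5.49 with DMSO and 5.38 with JQ1. The size of its difference is therefore uncertain. Other probe sets in BE(2)-C lay at 0.04 for TP53INP1, -0.02 for H2BC21, 0.02 to 1.31 for YPEL2 and -0.07 to 0.81 for PPARA. Averaging all 9 sets of PPARA gave a BE(2)-C fold change of 0.33, which did not pass (limma adjusted p = 0.161). For IGFBP5 (2.765) and P2RX5 (1.9331) the positive difference stands for a smaller fall in BE(2)-C, and the Kelly JQ1 mean of IGFBP5 (4.46) was under the brightest tag control, so its size is uncertain.

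The effect was lower in BE(2)-C by the following differences: SGK1 -1.9703, MBOAT4 -2.0412, DCN -1.9455, ENG -2.1345, RIN2 -2.2429, ARL9 -2.5369 and PPEF1 -2.8943. The largest were TSPAN8 at -3.3282, FGL1 at -3.0367 and the tubulin TUBA1C at -3.0154. TSPAN8, PPEF1, ARL9, MBOAT4 and DCN ended with a JQ1 mean under the brightest tag control, so their sizes are uncertain.

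Probe sets outside the gene table also moved: 41 of the 1832 that name several genes passed in BE(2)-C (2.24%, 22 higher and 19 lower), and 63 of the 2473 that name none (2.55%, 28 higher and 35 lower). No gene is named from them.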

How the results depend on the processing

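No called gene turned its sign, which leaving out arrays could not bring about in the 849 of 850 whose groups do not overlap. Medians near 0 of several lists turned their sign, that of the respiratory chain under 7 of 16 alternatives. Rises outnumbered falls without DMSO replicate 3 (280 and 259) and with the covariate. The BE(2)-C count of 850 was 734 to 1139 with only the 6 arrays, a trend and robust prior, quantile normalization, an offset of 16, dim genes left out or the mean of probe sets, which cut the 2-fold rises to 117. Testing every probe set gave 702 falls, and 311 rises and 399 falls at 2-fold. With the hybridization signal as a covariate 2752 passed (1486 higher, 1266 lower). Added after seeing the data, the same covariate with only the 6 arrays gave 4413 (2305 higher, 2108 lower), and leaving out DMSO replicate 1 and JQ1 replicate 3 together gave 428 (175 higher, 253 lower). Without single arrays the counts ranged from 322 to 792 in all, 137 to 293 higher, 185 to 499 lower, and at 2-fold 112 to 219 higher and 153 to 309 lower; fewer arrays give fewer degrees of freedom. For the line difference they ranged from 39 to 212 in all, 27 to 170 above Kelly and 12 to 42 below; the 21 below were 40 with quantile normalization, 33 with the mean of probe sets and 12 without dim genes, and the covariate gave 686 (460 above, 226 below). The cause of these shifts was not tested.

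With the replicate number as a block 793 genes passed in BE(2)-C and 100 in the line difference. Residuals of same-numbered BE(2)-C arrays correlated at -0.07, 0.53 and -0.74 across genes. Of the 6 arrays 1 correlated best with its own number. Most of this variation lay along 1 component that followed the hybridization signal (r = 0.976). These values therefore cannot decide whether the numbers pair the arrays. Of 196 named genes that passed, 113 passed under every alternative and 70 lost the call without some array. Signal over background limits the dim genes, and depth does not apply to arrays.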

Other observations

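Some noncoding transcripts rose, although 94.9% of the genes that rose at least 2-fold encode proteins, against 95.4% of all genes. MIR7-3HG, the host transcript of a microRNA, moved from 4.61, 4.71 and 4.31 with DMSO to 7.53, 7.47 and 7.38 with JQ1, so its DMSO arrays were under the brightest tag control (5.49) and the size of its rise of 2.92 is uncertain (limma adjusted p = 0.000246). SCARNA20, a small RNA of Cajal bodies, moved from 8.17, 6.86 and 6.80 with DMSO to 9.60, 9.18 and 9.82 with JQ1. DMSO replicate 1 stood above the other DMSO arrays, and the rise of 2.26 did not pass with the mean of its 3 probe sets. Of 12 measured small nucleolar and Cajal body RNAs 2 rose (16.7%, against 2.18% of all genes) and 0 fell, and with single arrays left out 1 or 2 rose. MALAT1, a long nuclear RNA, rose by 0.97, from 11.86, 11.77 and 11.78 to 12.95, 12.78 and 12.60; its limma adjusted p was 0.0518 to 0.0888 without any 1 of DMSO replicates 2 and 3 and JQ1 replicates 1 and 2. No explanation of these values was tested.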
